A study of Mus musculus with 12 samples.

Results

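The 8 genes described here, *Pax6*, *Sox1*, *Nes*, *Neurog2*, *Zic1*, *Ngfr*, *Tubb3* and *Map2*, are neural progenitor and neuron markers, and they were taken by symbol from the 24881 symbols of the expression table. RNA-seq was performed on mouse R1 embryonic stem cells (ESCs) that carry the FUCCI reporters, fluorescent proteins whose colour follows the cell cycle, and all cells were sorted in G1 phase before RNA extraction. The groups were WT ESCs in serum, P53-/- ESCs in serum, WT ESCs in 2i and P53-/- ESCs in 2i, with 2 libraries each. Serum medium holds cells in a mixed state, whereas 2i is a defined medium with inhibitors of MEK and GSK3 that holds them in the ground state of pluripotency. P53-/- lines were single-cell clones from CRISPR/Cas9 editing of *Trp53*. A pair of clones was sequenced. The table does not say which library came from which clone, and nothing in the labels says that the libraries of a group came from separate cultures. The p-values below therefore measure the spread between these libraries. Apart from genotype and medium, the groups share the R1 background, the reporters and the G1 sort.

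When ESCs leave pluripotency toward the neural lineage, SOX1 and PAX6 mark the first neuroepithelial cells and nestin forms their intermediate filaments. Proneural bHLH factors such as NEUROG2 then drive progenitors out of the cell cycle, and class III beta-tubulin (*Tubb3*) and the dendritic microtubule-associated protein MAP2 appear in neurons. ZIC1 patterns the neural plate and neural crest, and NGFR is the low-affinity p75 receptor of the neurotrophins, used to mark neural crest cells.

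Values are FPKM (fragments scaled by transcript length and by the mapped fragments of the library), so that levels of different genes can be set side by side. The depth, estimated from the steps between low FPKM values, ran from 5200000 to 13200000 fragments up to a factor common to all libraries, and 15181 to 15792 symbols were above 0 in a library. Factors for median-ratio scaling ran from 0.977 to 1.03. *Trp53* was at 7.25 and 1.88 FPKM for P53-/- in 2i against 26.8 and 33.7 for WT in 2i, and at 16.8 and 3.68 for P53-/- in serum against 77.6 and 75.1 for WT in serum. Each P53-/- library was below each WT library of its medium. Of the pluripotency markers, *Pou5f1*, which encodes OCT4, was at 473 to 982 FPKM and *Sox2* at 110 to 221 FPKM over all libraries, while *Lin28a* had 3.76 to 10.3 FPKM in 2i and 87 to 106 in serum, and *Utf1* 4.81 to 7.3 in 2i and 46.3 to 55.6 in serum. The 12 markers of fibroblasts or feeder cells summed to 1.83 to 3.52 FPKM in the 2i libraries and 8.45 to 11.1 FPKM in the serum libraries, where *Thy1* made up most of the sum. Primitive endoderm markers summed to 12.1 to 36.9 FPKM and mesoderm markers to 3.03 to 14.7 FPKM. The part of such cells in the results below was not tested, and in bulk RNA fewer cells of a type and less RNA per cell cannot be told apart.

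Most of the 8 markers were low in these ESCs. *Tubb3* was highest, with a mean of 23.9 FPKM over the 8 libraries, followed by *Ngfr* (9.61), *Nes* (5.28), *Sox1* (1.26), *Map2* (0.778), *Pax6* (0.432), *Zic1* (0.152) and *Neurog2* (0.0061). *Tubb3* lay above 86.3% of all symbols and *Ngfr* above 75.4%, while *Sox1* lay above 55.3% and *Neurog2* above 27.7%. Many other neural genes were low as well, as were many symbols of the whole series. Of all 24881 symbols, 12572 reached a mean of 0.5 FPKM and 6501 were at 0 in every library. Of 168 symbols in 5 neural lists (progenitor factors, proneural factors, neuron markers, neurotrophins, and neural crest and glia), 79 had a mean under 0.5 FPKM, 12 were listed at 0 in every library, and 25 reached a mean of 10 FPKM. *Dcx*, which encodes doublecortin of migrating neurons, was among those at 0, whereas *Stmn2*, a neuronal regulator of microtubules, stood at 37.9 to 53.1 FPKM in 2i and 110 to 136 FPKM in serum.

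**Figure D1:**
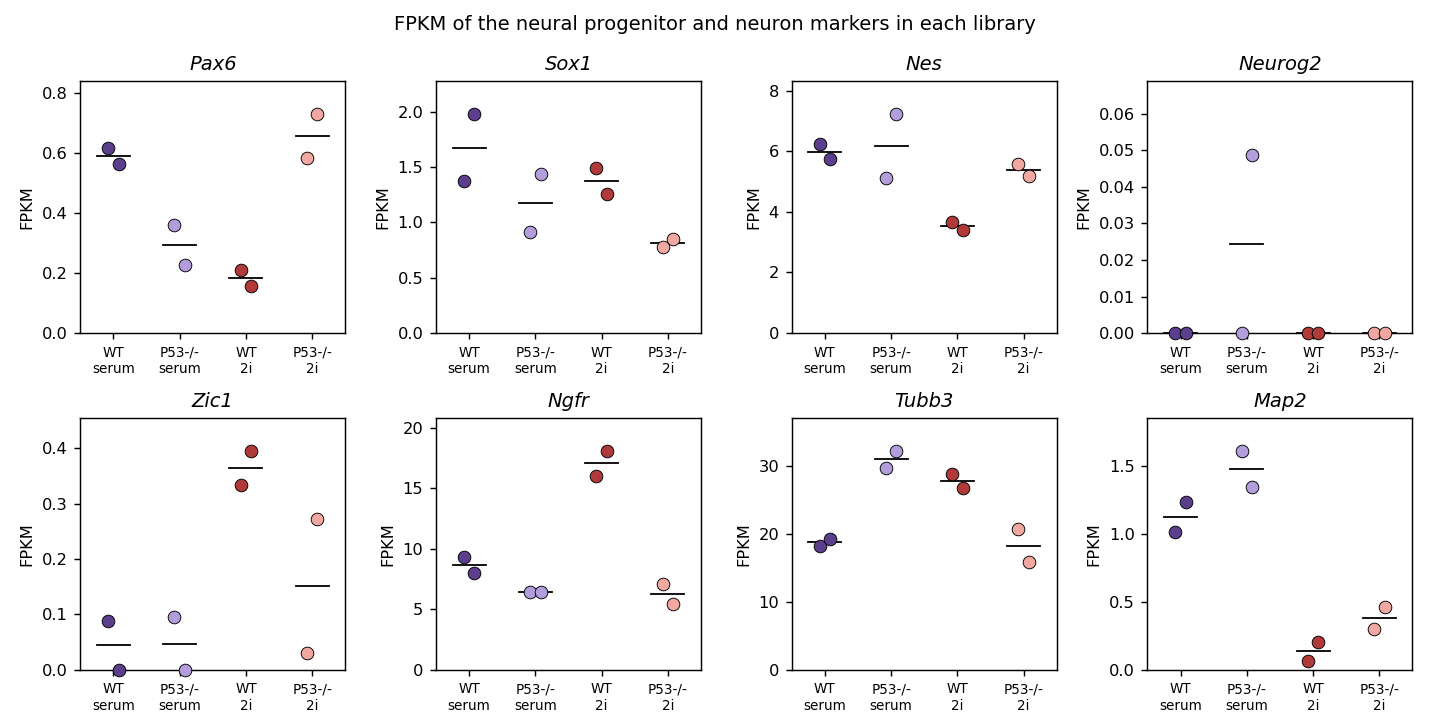
FPKM of each marker (vertical axes, linear and starting at 0, with a range of their own) in the 4 groups; circles are the 2 libraries of a group and the line is their mean. *Ngfr* stood highest in WT 2i (16 and 18.1), *Map2* was below 0.5 in every 2i library, and the P53-/- libraries of *Tubb3* and *Pax6* were on opposite sides of the WT libraries in serum and in 2i.

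Genes with a mean of at least 0.5 FPKM were tested with limma on log2(FPKM + 0.1), a scale that understates changes of low genes, and calls needed more than a 1.5-fold difference with an adjusted p below 0.1. Of the 8 markers, *Sox1*, *Nes*, *Ngfr*, *Tubb3* and *Map2* passed this filter on low values and 3 did not. In P53-/- compared with WT 2i ESCs, 2 of the 5 tested markers were lower (*Ngfr* and *Tubb3*) and 0 were higher. Over all 12572 genes tested, 10.3% passed, 4.36% higher and 5.97% lower in P53-/-. In serum 0 of the 5 were called, where 1.02% of all genes passed, 0.135% higher and 0.883% lower in P53-/-. By limma, 2 of the 5 had an unadjusted p under 0.05 in serum, beside 1422 of all 12572 genes.

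The difference between the media in the effect of P53 loss (the interaction) was called for 0 of the 5 markers by limma, and for 0.207% of all genes, 0.103% in each direction. An unadjusted p under 0.05 was found for 2 of the 5 markers, beside 1651 of all 12572 genes. Between the media the calls were far more numerous. In WT 2i compared with WT serum ESCs, *Ngfr* was higher and *Nes* and *Map2* were lower, which makes 3 of 5, against 55.7% of all genes called (27.2% higher, 28.6% lower). In P53-/- 2i compared with P53-/- serum ESCs, *Tubb3* and *Map2* were lower, 2 of 5, against 58.2% of all genes (28% higher, 30.1% lower). Both counts include *Map2*, which passed the filter on low values only through its serum libraries, so its part in them is a description. Most genes tested thus differed between the media.

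**Figure D2:**
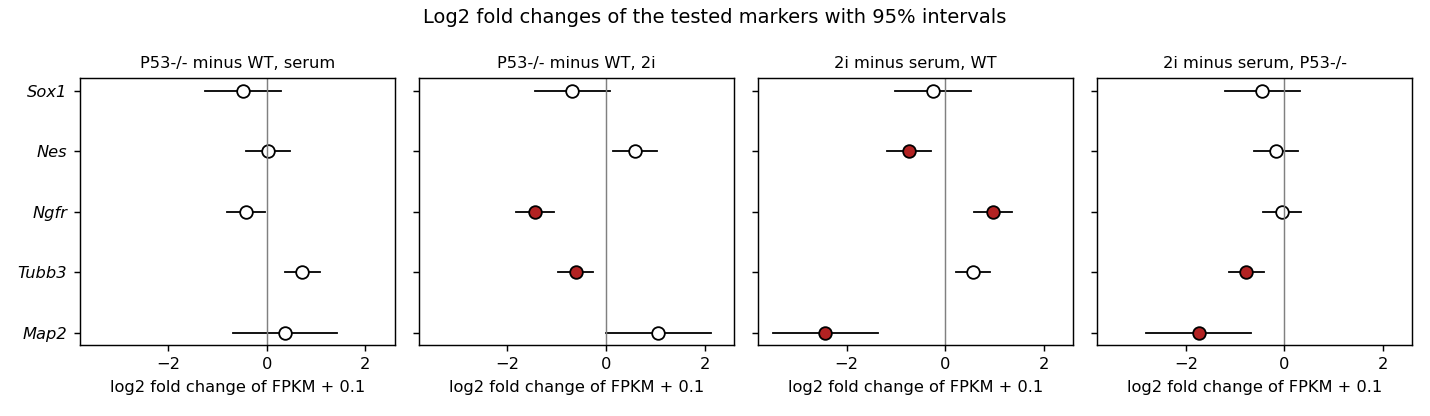
Log2 fold changes of FPKM + 0.1 (horizontal axes) of the 5 tested markers in the 4 pairwise comparisons, with 95% intervals from limma; filled circles are called. In serum no marker was called on loss of P53, in 2i *Ngfr* (−1.44) and *Tubb3* (−0.61) were, and *Map2* had its largest difference between the media in WT (−2.43).

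*Ngfr* was highest in WT 2i. The gene lies on the minus strand of chromosome 11 of GRCm38, the build of all positions given here and not the mm9 build named by the submitters, from 95568818 to 95587735, with 1 annotated transcript and no overlapping gene. Its FPKM was 16 and 18.1 for WT in 2i, 7.05 and 5.46 for P53-/- in 2i, 9.32 and 8.03 for WT in serum, and 6.41 and 6.44 for P53-/- in serum. WT 2i stood apart from the other groups, and the lowest groups, P53-/- serum and P53-/- 2i, overlapped. In 2i the mean fell from 17.1 ± 1.52 (SD, n = 2) in WT to 6.25 ± 1.12 FPKM (SD, n = 2) in P53-/-. The difference was −1.44 on the log2 scale (SE, the standard error, 0.17, limma adjusted p = 0.00435), and it was not called with only the 2i libraries in the fit (limma adjusted p = 0.102). In serum the log2 fold change was −0.42 (SE 0.17, limma adjusted p = 0.4), with both P53-/- libraries below both WT libraries. The difference of these effects was −1.02 (SE 0.24, limma adjusted p = 0.174). WT ESCs had more *Ngfr* in 2i than in serum by 0.97 on the log2 scale (SE 0.17, limma adjusted p = 0.0018), whereas in P53-/- ESCs the media differed by −0.05, with a 95% interval from −0.44 to 0.34.

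The 300 bases around the *Ngfr* start (250 before and 50 after it) are shown because this gene had the largest change on loss of P53 among the tested markers. RefSeq windows of this kind on GRCm38.p6 were found for all 8 markers, 9 windows in all since *Pax6* has a pair of starts. RefSeq starts differ from the ends of the gene spans given here, which are from GENCODE. Capitals mark GC boxes, the letters GGGCGG on either strand.
Ngfr promoter window, chr11:95587649-95587948, minus strand: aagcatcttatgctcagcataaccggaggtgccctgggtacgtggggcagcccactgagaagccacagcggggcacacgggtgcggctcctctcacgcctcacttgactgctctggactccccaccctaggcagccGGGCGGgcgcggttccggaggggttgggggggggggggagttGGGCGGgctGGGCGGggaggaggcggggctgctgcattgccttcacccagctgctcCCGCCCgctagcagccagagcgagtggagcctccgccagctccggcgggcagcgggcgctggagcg
The *Ngfr* window holds 4 GC boxes, 2 E-boxes (CANNTG, a palindrome and the motif of bHLH factors) and 23 CpG. Of the 9 windows, 7 hold a GC box, 3 an E-box, 4 a CCAAT box (CCAAT on either strand) and 0 the TATA box TATAAA. Over all 32851 RefSeq windows these shares were 35.7%, 72.3%, 37.4% and 13.6%. CpG numbers ran from 10 to 37 in the marker windows, all above the median of 7 over all windows, and each GC box itself holds 1 CpG. The motifs were matched by their letters and say nothing on binding.

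The neurotrophin ligands and NGFR partners were tested where their levels allowed. The receptor tyrosine kinase *Ntrk2* was at 0 to 0.283 FPKM, and *Ntrk3* ran from 0.102 to 1.32 FPKM. Of the 9 tested genes of this list, *Ripk2*, a kinase that can be recruited to NGFR, was called as higher in P53-/- 2i (6.92 and 5.3 against 4.11 and 3.49 FPKM, limma adjusted p = 0.0859), and 0 were lower. This is 1 of 9, or 11.1%, near the 10.3% of all genes. The call of *Ripk2* was lost on leaving out any of the 8 libraries. Between the media in WT, *Ntf5* (log2 fold change 2.18), *Ndn* (1.72) and *Maged1* (1.35) rose in 2i and *Sort1* fell (−0.92), with limma adjusted p from 5.29e-05 to 0.0148. These 4 of 9 are 44.4%, below the 55.7% of all genes. NTF5 is a neurotrophin, sortilin is a co-receptor of NGFR for pro-neurotrophins, and necdin and MAGED1 bind the NGFR intracellular domain. *Maged1*, for example, had 72.3 and 77.3 FPKM for WT in 2i and 29.4 and 29 for WT in serum.

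*Tubb3* differed between the genotypes with opposite signs in the media. It lies on the plus strand of chromosome 8, from 123411424 to 123422015, and shares that strand with the overlapping gene model *Gm20388*. Its FPKM was 28.8 and 26.7 for WT in 2i and 20.7 and 15.8 for P53-/- in 2i, but 18.2 and 19.2 for WT in serum and 29.6 and 32.2 for P53-/- in serum. The libraries of WT and P53-/- did not overlap in either medium, and P53-/- was the lower genotype in 2i and the higher in serum. In 2i the log2 fold change was −0.61 (SE 0.15, limma adjusted p = 0.054). In serum it was 0.72 (SE 0.15, limma adjusted p = 0.122), which missed the threshold. The interaction was −1.33 (SE 0.21, unadjusted p = 0.000285 in limma) and narrowly missed it after adjustment (0.101).

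Across the media, *Tubb3* was lower in 2i than in serum in P53-/- ESCs by 0.77 on the log2 scale (log2 fold change −0.77, SE 0.15, limma adjusted p = 0.00301). In WT ESCs it was higher in 2i, with a log2 fold change of 0.56 (limma adjusted p = 0.0136) that lay under the 1.5-fold limit. With median-ratio scaling (0.62) and quantile normalization (0.75) this WT difference was called. The call in 2i on loss of P53 was lost without P53-/- 2i library 2 (−0.42), without WT 2i library 1 (−0.56) and without either WT serum library, where the value stayed at −0.61. With only the 2i libraries in the fit, *Tubb3* was not called either (limma adjusted p = 0.201).

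The window of *Tubb3* is shown beside that of *Ngfr*, as the other marker lower in P53-/- 2i.
Tubb3 promoter window, chr8:123411303-123411602, plus strand: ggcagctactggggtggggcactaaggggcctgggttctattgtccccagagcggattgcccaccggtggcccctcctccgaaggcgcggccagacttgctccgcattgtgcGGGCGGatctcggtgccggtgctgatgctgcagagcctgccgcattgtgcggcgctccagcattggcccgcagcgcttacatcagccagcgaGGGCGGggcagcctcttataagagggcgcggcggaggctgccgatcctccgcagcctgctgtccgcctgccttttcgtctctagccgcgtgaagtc
It holds 2 GC boxes, 1 CCAAT box, no E-box and 26 CpG. It is the 1 window of the 9 with a match to the P53 decamer, the single repeat of the P53 motif (either strand), AGACTTGCTC at chr8:123411395-123411404 on the plus strand, between 158 and 149 bases before the RefSeq start. That start lies inside the gene span given above, so the match is nearer to the GENCODE start. Such a match is found in 8.36% of all windows, a full P53 site is usually a pair of decamers, and binding was not analysed here. The left part of RE1, the REST motif (TTCAGCACC on either strand), was in 0 of the 9 windows and in 0.371% of all windows.

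*Tubb3* is a minor beta-tubulin of ESCs. It made up 2.18% to 4.31% of the summed FPKM of 8 beta-tubulin genes, a sum of 722 to 852 FPKM. Reads shared between near-identical tubulin genes may have been divided by the authors' processing, so that its level carries this uncertainty. *Tubb5*, the main form, was at 336 to 392 FPKM with a log2 fold change of 0.09 in P53-/- 2i and of −0.03 in P53-/- serum. *Tubb4b*, *Tubb2b* and *Tubb6* were not called on loss of P53 in either medium. *Tubb2a* had 34.3 and 36.7 FPKM for P53-/- in 2i and 26.9 and 24.2 for WT in 2i, a log2 fold change of 0.47 under the fold limit, opposite in sign to that of *Tubb3*. Between the media in WT, the 2i level of *Tubb2a* exceeded the serum level by 0.91 (log2, limma adjusted p = 0.00095).

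**Figure D3:**
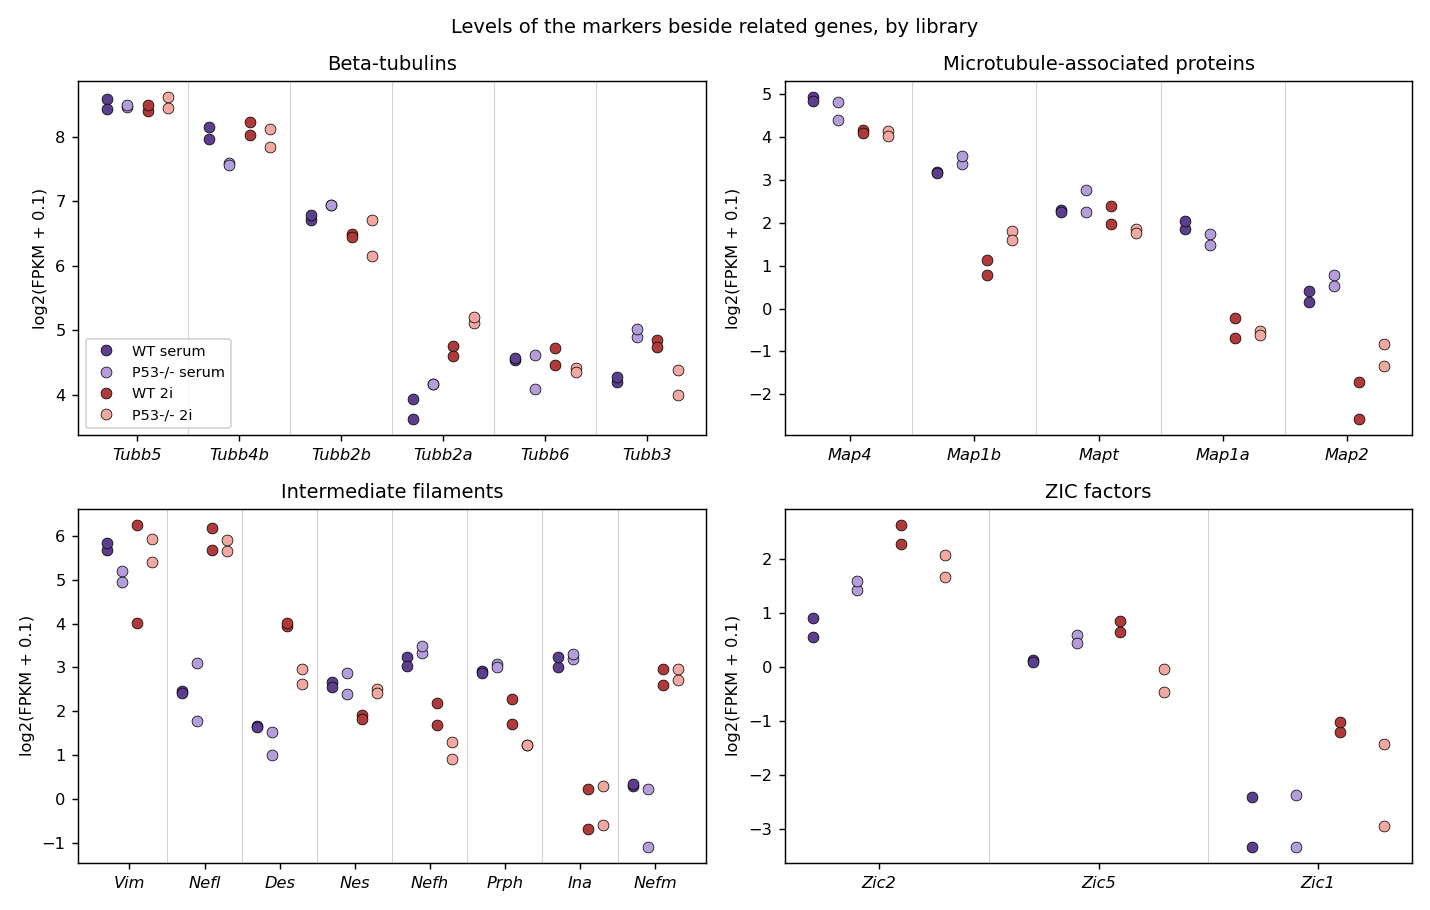
Levels, as log2(FPKM + 0.1), of the markers *Tubb3*, *Map2*, *Nes* and *Zic1* beside related genes; each circle is 1 library, coloured by group. *Tubb3* stood far below *Tubb5*, *Map2* below the other microtubule-associated proteins, and *Zic1* below *Zic2*, whose 2i libraries (3.09 to 6.09 FPKM) were above its serum libraries (1.38 to 2.92 FPKM).

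*Map2* passed the filter of a mean of 0.5 FPKM over all libraries through its serum libraries, since both 2i means (0.136 in WT and 0.379 in P53-/-) lay below it, so its fold changes between the media are a description. It lies on the plus strand of chromosome 1, from 66175273 to 66442583, with 24 annotated transcripts, and the small gene models *Gm24729*, *Gm25411* and, on the other strand, *Gm10558* overlap it. Its FPKM was 1.01 and 1.23 for WT in serum, 1.61 and 1.34 for P53-/- in serum, 0.0671 and 0.206 for WT in 2i, and 0.297 and 0.462 for P53-/- in 2i. All 4 groups were apart, with both serum groups above both 2i groups. On the longest transcript, the WT 2i values stand for about 3.32 and 6.69 fragments. In WT the log2 fold change of 2i against serum was −2.43 (SE 0.46, limma adjusted p = 0.00271), and in P53-/- it was −1.73 (SE 0.46, limma adjusted p = 0.012). With a pseudocount of 1 the WT value was −0.9 and was still called. P53-/- libraries were above WT libraries in both media, with log2 fold changes of 1.06 in 2i (95% interval 0 to 2.13, limma adjusted p = 0.199) and 0.37 in serum (95% interval −0.69 to 1.43), and neither was called.

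The *Map2* window is shown for the difference between the media, and the *Nes* window as the other marker that was lower in WT 2i than in WT serum.
Map2 promoter window, chr1:66175079-66175378, plus strand: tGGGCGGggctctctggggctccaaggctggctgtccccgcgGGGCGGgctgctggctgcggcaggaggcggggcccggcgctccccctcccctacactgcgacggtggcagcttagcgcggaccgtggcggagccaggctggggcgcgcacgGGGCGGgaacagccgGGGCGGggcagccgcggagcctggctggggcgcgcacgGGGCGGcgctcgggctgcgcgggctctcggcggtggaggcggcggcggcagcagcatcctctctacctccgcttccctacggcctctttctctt
Nes promoter window, chr3:87970843-87971142, plus strand: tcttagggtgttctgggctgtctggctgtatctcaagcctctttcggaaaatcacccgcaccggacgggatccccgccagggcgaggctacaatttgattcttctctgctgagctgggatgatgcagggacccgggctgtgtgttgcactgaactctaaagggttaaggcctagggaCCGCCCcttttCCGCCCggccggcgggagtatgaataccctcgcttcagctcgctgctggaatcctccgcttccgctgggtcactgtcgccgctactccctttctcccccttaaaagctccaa
The *Map2* window holds 5 GC boxes and 37 CpG, and the *Nes* window 2 GC boxes and 18 CpG. Neither holds an E-box, a CCAAT box or a match to the P53 decamer.

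*Map1a* and *Map4*, which also bind microtubules, were lower in WT 2i as well. *Map1a* went from 3.55 and 4.05 FPKM for WT in serum to 0.519 and 0.757 for WT in 2i (a log2 difference of −2.42, limma adjusted p = 0.000248), and *Map4* had a log2 fold change of −0.76 (limma adjusted p = 0.00367). *Mapt*, which encodes tau, did not pass in WT (−0.1, limma adjusted p = 0.709). *Map1b*, which acts in growing axons, was called as higher in P53-/- 2i, with 3.39 and 2.92 FPKM against 1.63 and 2.09 for WT in 2i (a log2 difference of 0.74, SE 0.18, limma adjusted p = 0.0533). It kept this call in 3 of 8 fits that left out 1 library. *Map2* was 0.266% to 3.22% of the summed FPKM of *Map1a*, *Map1b*, *Map2*, *Map4* and *Mapt*.

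*Nes* was steadier. It lies on the plus strand of chromosome 3, from 87971078 to 87980451, with no overlapping gene. It had 3.68 and 3.42 FPKM for WT in 2i, 5.6 and 5.19 for P53-/- in 2i, 6.24 and 5.75 for WT in serum, and 5.11 and 7.24 for P53-/- in serum. WT 2i was the lowest group and did not overlap any other, while the P53-/- serum libraries spanned those of WT serum. WT 2i was lower than WT serum, with a log2 fold change of −0.74 (SE 0.19, limma adjusted p = 0.0123). Loss of P53 in 2i gave a log2 fold change of 0.59 (SE 0.19, limma adjusted p = 0.11), just outside the threshold. It was called with quantile normalization (0.68) and without either P53-/- serum library (0.59 in both). In serum the difference was 0.02 (95% interval −0.43 to 0.47), and its sign changed with the library left out.

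Nestin belongs to the intermediate filament family, whose members moved in different directions. *Nefl* and *Nefm*, the light and medium neurofilaments, were higher in WT 2i than in WT serum (log2 fold changes 3.5 and 2.46, limma adjusted p = 0.000201 and 0.00128), and *Des*, which encodes desmin of muscle, was higher too (2.32, limma adjusted p = 9.68e-05). *Ina*, alpha-internexin of neurons, was lower (−3.35, limma adjusted p = 0.000226), as were *Nefh*, the heavy neurofilament (−1.2, limma adjusted p = 0.00249), and *Prph*, peripherin of peripheral neurons (−0.9, limma adjusted p = 0.00647). *Nefl* reached 51.4 and 72.8 FPKM for WT in 2i, above the *Nes* level of every library. In P53-/- 2i, *Des* (−1.18), *Nefh* (−0.84) and *Prph* (−0.77) were called as lower, with limma adjusted p from 0.0215 to 0.0667. *Nefh* and *Prph* each kept this call in 1 of 8 fits that left out 1 library. *Vim*, which encodes vimentin, stood at 16 and 76.1 FPKM in the WT 2i libraries, a spread that no other group had, and was called in 0 of the 5 comparisons.

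*Sox1* was low in every group. It lies on the plus strand of chromosome 8, from 12395295 to 12400126, with 1 transcript, and *Sox1ot* and *Gm25239* overlap it on the same strand. Its FPKM was 1.37 and 1.98 for WT in serum, 1.49 and 1.26 for WT in 2i, 0.91 and 1.44 for P53-/- in serum, and 0.781 and 0.851 for P53-/- in 2i. P53-/- 2i was the lowest group and overlapped no other, and the other groups overlapped in this order. The log2 fold change in 2i on loss of P53 was −0.68 (SE 0.33, 95% interval −1.45 to 0.08, limma adjusted p = 0.247). *Sox1* was called in 0 of the 5 comparisons and had an unadjusted p under 0.05 in 0 of them. It made up 0.452% to 1.34% of the summed FPKM of the SOXB1 genes *Sox1*, *Sox2* and *Sox3*. *Sox3* was at 1.83 and 1.62 FPKM for WT in serum and 0.186 and 0.0946 for WT in 2i (a log2 difference of −2.95, limma adjusted p = 0.00182). It passed the filter on low values only through serum, so this difference is a description. *Sox2*, a core pluripotency factor, had a log2 difference of −0.6 (limma adjusted p = 0.0453), which ran from −0.95 to −0.25 over 17 settings and was called in 11 of them.

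*Pax6*, *Zic1* and *Neurog2* had means under 0.5 FPKM and were not tested above. *Pax6* lies on the plus strand of chromosome 2, from 105668900 to 105697364, and the antisense gene *Pax6os1* overlaps it. Libraries were stranded, but whether strand was used in counting is not given in the sources used here. Its FPKM was 0.584 and 0.731 for P53-/- in 2i, 0.21 and 0.157 for WT in 2i, 0.362 and 0.226 for P53-/- in serum, and 0.618 and 0.565 for WT in serum. P53-/- libraries were above WT libraries in 2i and below them in serum, with no overlap in either medium. On the longest transcript these values stand for about 3.61 to 36.1 fragments. With no filter on low values, the log2 fold change was 1.42 in 2i (SE 0.34, limma adjusted p = 0.0696) and −0.83 in serum (SE 0.34, limma adjusted p = 0.505), and the difference of 2.25 had an adjusted p of 0.195 in limma.

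Also with no filter, *Pax6* was lower in WT 2i than in WT serum (log2 fold change −1.29, limma adjusted p = 0.0191) and higher in P53-/- 2i than in P53-/- serum (0.96, limma adjusted p = 0.0546). The signs of *Pax6* in 2i and in serum were thus the reverse of those of *Tubb3*.

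*Zic1* lies on the minus strand of chromosome 9, from 91358058 to 91365810, and *Zic4* overlaps it on the other strand. It had 0.333 and 0.396 FPKM for WT in 2i, 0.0306 and 0.272 for P53-/- in 2i, 0.0944 and 0 for P53-/- in serum, and 0.0889 and 0 for WT in serum. WT 2i was the highest group and overlapped no other. These values stand for at most about 14.7 fragments. With no filter the log2 fold change of WT 2i against WT serum was 1.75 (SE 0.6, limma adjusted p = 0.0506).

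Among related ZIC factors, *Zic2*, which acts in forebrain patterning, rose in WT 2i from 1.77 and 1.38 to 6.09 and 4.75 FPKM (log2 fold change 1.72, limma adjusted p = 0.000586). On loss of P53 in 2i, *Zic5* was called as lower (−0.99, limma adjusted p = 0.0861), and it kept this call in 1 of 8 fits that left out 1 library.

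*Neurog2* lies on the plus strand of chromosome 3, from 127633135 to 127635631, with 1 transcript. It was listed at 0 in 7 of 8 libraries and at 0.0488 FPKM in P53-/- serum library 2, which stands for about 1.02 fragments. Of its relatives, *Neurog1* was listed at 0 in 7 of 8 libraries and *Neurog3* reached 0.502 FPKM. No fold change is given for *Neurog2*.

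In WT and P53-/- ESCs alike, genes of the neural lists differed between the media in both directions, as did most genes tested. Of 105 tested genes in 6 lists, which leave out the 8 markers (the 5 lists named above and the REST complex with other repressors of neuronal genes), 31 were higher and 40 lower in WT 2i than in WT serum, with a median log2 fold change of −0.17 beside −0.02 over all genes. That is 67.6% called, beside 55.7% of all genes (27.2% higher, 28.6% lower), the background for the counts of each list below. Lists were written by hand with earlier results of these data known, and some of their genes passed the filter on low values only through the medium where they are high. The counts of these lists are therefore a description. Among 39 tested neuron markers 8 were higher and 20 lower. *Gap43*, a growth cone protein, went from 8.38 and 5.03 FPKM for WT in serum to 0.103 and 0 for WT in 2i, *Elavl3*, a neuronal RNA-binding protein, from 3.47 and 3.23 to 0.315 and 0.185 (log2 fold change −3.33, limma adjusted p = 9.95e-05), and *Uchl1* from 25.4 and 27.1 to 2.15 and 5.09 (−2.95, limma adjusted p = 0.000329). *Nsg1* and *Nsg2*, neuronal endosomal proteins, were higher in WT 2i (3.02 and 2.78, limma adjusted p = 0.000814 and 0.00343). *Gap43* and *Elavl3* passed the filter on low values only through serum, and *Nsg1* and *Nsg2* only through 2i. Their differences between the media are a description, as for *Map2*.

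Progenitor factors were split, with 9 of 24 higher and 8 lower in WT 2i. *Slc1a3*, a glutamate transporter of radial glia, fell from 6.47 and 7.01 FPKM to 0.0291 and 0.0892 (log2 fold change −5.45, limma adjusted p = 0.000128), and *Sox11* from 4.64 and 4.08 to 0.228 and 0.0654 (−4.26, limma adjusted p = 9.94e-05). Both passed the filter on low values only through serum, so these falls are a description. *Meis2* (2.69, limma adjusted p = 8.5e-05) and *Sox21* (2.05, limma adjusted p = 0.00636), homeobox and SOXB2 factors, were higher. *Rest*, the repressor of neuronal genes in non-neuronal cells, had 43.6 and 34.6 FPKM for WT in 2i and 94.9 and 91 for WT in serum (−1.26, limma adjusted p = 0.000235). In its list 7 of 16 genes were lower and 1, *Sin3b*, a corepressor subunit, was higher (1.88, limma adjusted p = 2.63e-05). Of the 8 tested neural crest and glia genes, 6 were higher, among them *Aldh1l1*, a folate enzyme used as an astrocyte marker, with 30.7 and 20.9 FPKM for WT in 2i and 1 and 1.01 for WT in serum.

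The same lists in P53-/- 2i against P53-/- serum ESCs held 27 higher and 45 lower genes of 105, with a median of −0.31 beside −0.03 over all genes. That is 68.6% called, beside 58.2% of all genes (28% higher, 30.1% lower). In the neuron markers 7 were higher and 23 lower, in the progenitor factors 8 and 9, in the proneural factors 3 and 3 of 9, in the neurotrophins 4 and 1 of 9, in the REST list 1 and 7 of 16, and in neural crest and glia 4 and 2 of 8. *Uchl1* had a log2 fold change of −5.05 here (limma adjusted p = 3.47e-05), and *Nefl* one of 3.35 (limma adjusted p = 0.000208). *Foxd3*, a factor of neural crest and of pluripotent cells, was higher in WT 2i than in WT serum (0.96, limma adjusted p = 0.00399) and lower in P53-/- 2i than in P53-/- serum (−1.09, limma adjusted p = 0.00195).

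**Figure D4:**
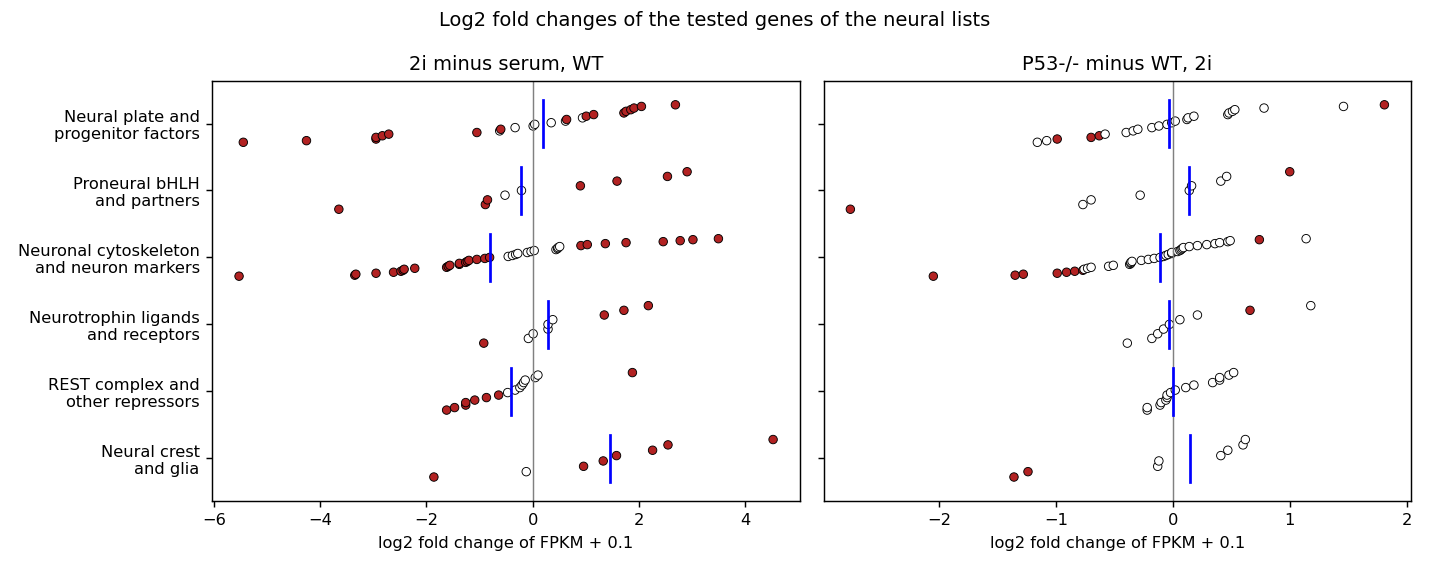
Log2 fold changes of FPKM + 0.1 (horizontal axes) of the tested genes of 6 neural lists (rows), for WT 2i against WT serum on the left and P53-/- against WT in 2i on the right; each circle is a gene, filled when called, and the blue line is the median of the list. Between the media both ends of each list hold called genes. On loss of P53 in 2i, 17 of the 105 genes are called (16.2%, beside 10.3% of all genes), with *Id3* (−2.76) farthest out.

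On loss of P53 in 2i, 17 of the 105 list genes were called, 4 higher and 13 lower, or 16.2%, beside 10.3% over all genes. In the neuron markers 1 of 39 was higher and 7 were lower, and the median was −0.11 beside 0.02 over all genes. *Nsg1* had 0.648 and 0.461 FPKM for P53-/- in 2i and 3.19 and 2.08 for WT in 2i (a log2 difference of −2.05, limma adjusted p = 0.0387). *Uchl1* (−1.35), *Chga*, a protein of secretory granules (−1.28), and *Scn3a*, a sodium channel (−0.99), were the next, with limma adjusted p from 0.0394 to 0.0716. When 1 library was left out, 0 to 5 of these genes were called in place of 8, and with only the 2i libraries in the fit 0 were.

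Of 24 progenitor factors, *Prom1*, which encodes the CD133 surface protein of progenitors, rose from 0.633 and 0.963 to 2.93 and 3.05 FPKM (log2 fold change 1.81, limma adjusted p = 0.022), and 3 were lower, among them *Zic5* and *Hes1*, a Notch effector that keeps progenitors undifferentiated (−0.7, limma adjusted p = 0.0442). In the REST list 0 of 16 were called by limma, while 4 had an unadjusted p under 0.05, beside 3173 of all 12572 genes. The proneural list held *Id2*, which was higher (1, limma adjusted p = 0.0794), and *Id3*, which was lower. ID proteins bind bHLH factors and keep them off DNA.

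*Id3* and *Foxd3* were the list genes whose call in 2i held under all 17 alternative settings. *Id3* had 179 and 129 FPKM for WT in 2i, 19.8 and 25.3 for P53-/- in 2i, 24.5 and 25.9 for P53-/- in serum, and 19.9 and 20.4 for WT in serum. WT 2i alone was high, as for *Ngfr*. The log2 fold change in 2i was −2.76 (SE 0.18, limma adjusted p = 0.00028), and that of the interaction was −3.08 (SE 0.26, limma adjusted p = 0.00313). *Foxd3* had 17.4 and 18.1 FPKM for WT in 2i and 6.7 and 6.96 for P53-/- in 2i (−1.36, limma adjusted p = 0.0096), and its interaction was −2.05 (limma adjusted p = 0.0634), which was called in 7 of 16 settings. *Twist1*, a bHLH factor of neural crest and mesenchyme, was also lower in P53-/- 2i (−1.24, limma adjusted p = 0.0722). Of the other 15 called list genes each lost its call on leaving out at least 1 library, and all 15 in a fit of the 2i libraries alone, while none of the 17 changed sign in any setting.

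In serum, 0 of the 105 list genes were called on loss of P53 by limma, with a median log2 fold change of 0.15 beside 0.02 over all genes, of which 1.02% were called. In that comparison 8 of the 105 had an unadjusted p under 0.05, beside 1422 of all 12572 genes. For the interaction, *Id3* and *Foxd3* were the 2 called genes of 105, where 0.207% of all genes were called. An unadjusted p under 0.05 was found for 19 of the 105 and for 1651 of all 12572 genes.

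The genes most like each marker were ranked by Pearson's r of log2(FPKM + 0.1) over the 8 libraries, among 11495 or 11496 genes with a mean of at least 1 FPKM. Libraries of a group share their medium and genotype, so high values are common and are given as a description. For *Map2* they were *Skil* (0.996), *Zfp367* (0.995) and *Phip* (0.995), and for *Ngfr* *Anxa8* (0.989), *Ift27* (0.978) and *Kazn* (0.976). For *Nes* they were *Emc4* (0.963), *Pbk* (0.961) and *Oip5* (0.959), and for *Sox1* *Extl3* (0.927), *Fam160b2* (0.922) and *Camk1d* (0.92). For *Tubb3* they were *Wdr7* (0.9), *Cd37* (0.899) and *Rdh10* (0.898). None of these 15 genes is in a neural list.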

How the data were processed

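Total RNA of G1-sorted ESCs was depleted of ribosomal RNA and made into stranded libraries, per the labels. The deposited values are FPKM, in 1 table by symbol and library. STAR, Cufflinks, DESeq2 and the mm9 build are named in the submitters' processing notes, without versions or roles. Of 12 samples in the labels, 4 (P21 knockout 2i ESCs and their WT controls) have no column in this table and are not analysed here. Column names give genotype and medium, and libraries were numbered by their order.

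The 8 members and the gene lists were chosen with earlier results of these data known. limma 3.58.1 in R 4.3.3 was run on log2(FPKM + 0.1) in 1 fit of the 4 groups, with a trend in eBayes and Benjamini-Hochberg adjustment over 12572 genes (mean FPKM of 0.5 or more). FPKM are not counts, so no count model was used. Calls needed an adjusted p under 0.1 and over 1.5-fold. Named were all members, *Trp53*, listed paralogues, up to 4 called genes per list and direction, and the 3 genes most alike in pattern. *Stmn2*, *Dcx*, *Ntrk2* and *Ntrk3* were named after their values were seen. Results of some list genes are not reported here. Alternatives were pseudocounts of 1 and 0.01, filters, 2 scalings, eBayes without trend, a threshold of 0.05, fits of the compared groups, and each library left out. Applying them to the lists was chosen after seeing the data.

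Depth was estimated from 2438 genes with 1 transcript in GENCODE M21 (GRCm38), which 24425 of 24881 symbols matched. It carries a factor common to all libraries and gives no counting interval. Promoter windows are from RefSeq (GRCm38.p6). No 2 libraries of a group shared more than 1 identical value above 0. The fit was tested on simulated data.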

Additional observations from a re-analysis of the deposited data

Results flagged for a closer look

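For *Tubb3*, the effect of P53 loss had opposite signs in the media, and P53-/- and WT libraries did not overlap in either medium. It was −0.61 on the log2 scale in 2i and 0.72 in serum, and the test of the difference (−1.33, limma adjusted p = 0.101) missed the threshold of 0.1. *Pax6* showed the same kind of split in the other sense, 1.42 in 2i and −0.83 in serum. It was below the filter on low values, so its difference was not tested in the fit reported first. With no filter the difference of 2.25 had a limma adjusted p of 0.195. *Tubb3* and *Pax6* were picked from the 8 markers because they showed such a split. How many of all genes show it was not counted. With 2 libraries a group it can also arise by chance, so it is given as a description.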

How the results depend on the processing

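No paired analysis was possible because the columns carry no replicate numbers. Of 5 counts of called markers, those for P53 loss in 2i (2 markers) fell to 1 at an adjusted p under 0.05 and to 0 in a fit of the 2i libraries alone, and ran from 1 to 3 with 1 library left out. For the interaction (0 markers) the count was 1, *Tubb3*, with a pseudocount of 1, a mean FPKM of at least 1 or quantile normalization, and 0 to 1 with 1 library left out. For WT 2i against WT serum (3 markers) it was 5 with no filter, 2 with a mean FPKM of at least 1, under which *Map2* is not tested, and 3 to 4 with 1 library left out. For P53-/- 2i against P53-/- serum (2 markers) it was 1 with a mean FPKM of at least 1, 3 with no filter, and 1 to 2 with 1 library left out. In serum it was 0 in all 17 settings.

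Signs turned with 1 library left out for *Nes* in serum (0.02, from −0.22 to 0.27, with −0.04 without WT serum library 2), *Nes* between media in P53-/- (−0.17, from −0.42 to 0.07), *Ngfr* between media in P53-/- (−0.05, from −0.23 to 0.13, and 0.01 with median-ratio scaling), the *Sox1* interaction (−0.19, from −0.5 to 0.11, with 0.06 without WT serum library 1), the *Trp53* interaction (0.28, from −0.8 to 1.36, with −0.67 without P53-/- 2i library 1) and *Trp53* between media in P53-/- (−1.06, from −2.14 to 0.02). None of these was called in the fit of all 8 libraries. The *Tubb3* call in P53-/- between media was lost without P53-/- 2i library 2 (−0.57).

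Over all genes, 1299 calls in 2i became 771 at 0.05, 193 with the 2i libraries alone and 491 to 1224 with 1 library left out. The 128 in serum became 73, 37 and 52 to 148. The 26 of the interaction became 66 with a pseudocount of 1, 16 at 0.05, and 19 to 69. The causes were not tested. Where 1 library was left in a group, it was assumed to vary like the other groups. With 2 libraries a group and 5200000 to 13200000 fragments, *Neurog2*, *Zic1* and *Pax6* rest on few fragments, and differences in them may not be detectable at this depth.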

Other observations

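Several markers of other lineages differed between the media. *Gsc*, a homeobox gene of the organizer and mesendoderm, was at 6.85 and 8.14 FPKM for WT in 2i and 6.23 and 9.83 for P53-/- in 2i, and was listed at 0 in both WT serum libraries. *T*, which encodes brachyury, was at 2.06 and 3.72 FPKM for WT in 2i and 0.227 and 0.285 for WT in serum (log2 fold change 3.02, limma adjusted p = 0.0028). Of 4 tested primitive endoderm markers, 2 were called as higher and 1 as lower in WT 2i than in WT serum, or 75%, beside 55.7% of all genes. The lower one, *Col4a1*, a basement membrane collagen, was at 17.1 and 17.4 FPKM for WT in serum and 1.94 and 0.755 for WT in 2i (−3.72, limma adjusted p = 0.000321), and in P53-/- 2i it was at 0.0907 and 0.296 (−2.26 against WT 2i, limma adjusted p = 0.0291). *Hnf4a*, a nuclear receptor of endoderm, was at 6.63 FPKM in WT 2i library 1 and 0.938 in library 2, against 0.134 and 0.126 for WT in serum (3.52, limma adjusted p = 0.00871), and *Gata4*, an endoderm factor, was at 2.4 and 1.28 against 0.83 and 0.614 (1.19, limma adjusted p = 0.044). *Hnf4a* passed the filter on low values only through WT 2i, and *Gsc* and *T* only through 2i. Their differences between the media, and the endoderm count that includes *Hnf4a*, are a description. Among 8 tested genes of formative or primed pluripotency, 1 (*Foxd3*) was called as higher, 5 as lower and 2 were not called in WT 2i against WT serum. That is 75%, beside 55.7% of all genes. Of the lower ones, *Dnmt3b*, a DNA methyltransferase, had 6.9 and 9.27 FPKM for WT in 2i and 32.3 and 28.6 for WT in serum (−1.91, limma adjusted p = 9.42e-05). *Klf4*, a factor of naive pluripotency, was lower in P53-/- 2i (23.2 and 26.3 FPKM) than in WT 2i (48.2 and 48.3 FPKM), with a log2 fold change of −0.96 and a limma adjusted p of 0.00782. Of the 12 pluripotency markers, *Klf4* and *Lin28a* were called as lower in this comparison, 0 as higher and 10 were not called. That is 16.7%, beside 10.3% of all genes.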
